A study of Mus musculus with 24 samples.

Results

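Monocytic myeloid-derived suppressor cells (M-MDSCs) of the spleen were compared between mice labelled IL-6 KO and mice labelled WT, without lymphodepletion, across all genes. Genes were taken when they had 10 or more normalized read counts in at least 3 of the 6 libraries, 3 of each label, and 11088 of the 23479 genes in the table passed. The 6 libraries belong to a set of 24 that also holds polymorphonuclear (PMN) MDSCs and mice given cyclophosphamide and fludarabine, which remove lymphocytes. The WT-labelled mice were C57BL/6 and the KO-labelled mice B6.129S2-Il6tm1Kopf/J, a strain with an insertion in Il6 made in cells of a 129 substrain and carried on a C57BL/6 background. All mice, controls included, bore B16 tumours, a transplanted mouse melanoma, of more than 25 mm2. The M-MDSCs were isolated from the spleen by fluorescence-activated sorting, with a stated purity above 99%, 7 days after the other mice were treated. Each library was made from 100 ng of total RNA, with ribosomal RNA reduced by probes. The labels give neither the sort markers nor the age or sex of the mice, and no pooling of mice is mentioned. The design text gives 3 mice for the WT-labelled and for the KO-labelled untreated group, so the spread between libraries is taken as that between animals.

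MDSCs are immature myeloid cells that accumulate in tumour-bearing hosts and restrain T cells, by consuming arginine, making reactive oxygen species and showing inhibitory ligands. Interleukin-6 binds a receptor of Il6ra and Il6st (gp130) and acts through Janus kinases and the transcription factor STAT3, with Socs3 as a feedback inhibitor. In myeloid cells it is known to act on the balance between monocyte and granulocyte output, on survival and on suppressive function.

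The libraries held 8910592 to 9701309 reads in the KO-labelled group and 7237462 to 8716391 in the WT-labelled group, and the 45S ribosomal transcript Rn45s took 6.07 to 11.1% and 11.3 to 12.6% of them. Both ranges are apart between the labels, and their part in the results below was not tested. Of 16 classical monocyte genes 15 passed the filter, which asks for 3 of the 6 libraries. Their summed level was 74000 to 115000 normalized counts in the KO-labelled and 74100 to 97600 in the WT-labelled libraries. The list shares Lyz2 and Chil3 with the secondary and tertiary granule list, so its sum does not by itself establish monocyte identity. Of 7 melanocyte genes, 5 (Tyr, Tyrp1, Dct, Mlana and Sox10) were at 0 in all 6. Xist lay between 9030 and 12600 and all 4 Y-linked genes were at 0, so the 6 libraries were alike in sex. The third KO-labelled library stood apart. Counts of its pairs with the other KO-labelled libraries differed by a chi-square of 34.2 and 39.7 per degree of freedom, against 14.4 for the other KO-labelled pair and 6.39 to 11.3 for the WT-labelled pairs. Of the gene groups that were highest in it, the primary granule, mitosis and DNA replication lists are given with and without it.

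Il6 itself (chr5:30013114-30019975) was examined first, since it is the targeted gene, and it went against the label. Its normalized count was 41.2, 38.3 and 33.3 in the 3 KO-labelled libraries and 0, 0 and 0.944 in the 3 WT-labelled ones. Here and below the 3 values are in the order of the replicate numbers and are rounded to 3 significant digits. The groups did not overlap, and 170 reads stood against 1, a ratio of normalized rates of 133 with an exact 95% interval of 23.6 to 5290 that covers counting error only. On the log2(normalized count + 1) scale used for every fold change below, the difference was 4.95 ± 0.64 (SE), with an adjusted p of 0.00259 in limma. It was called in all 6 fits that left out 1 library, with adjusted p up to 0.0214. Reads summed over the gene do not distinguish a disrupted transcript from an intact one, and an exchange of the 2 labels, which would turn every direction below, cannot be told apart from it here. All directions below are therefore between the libraries labelled IL-6 KO and those labelled WT, and do not show loss of interleukin-6.

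The Il6 promoter is printed because this gene had the largest rise among the genes examined by name. The stretch lies at chr5:30012864-30013163 on the plus strand of GRCm38.p6 (RefSeq), 250 bases before to 50 after the start, and capitals mark 2 overlapping matches to an NF-kB motif, GGGANNNNCC on either strand, at −44 and −43. NF-kB is a transcription factor of inflammatory genes, and 20.7% of the 32851 promoters of this length hold such a match. A C/EBP motif, TTGCNNAA, was matched once, on the reverse strand at −128 and in lower case, and 10.8% of promoters hold a match on either strand.
Il6: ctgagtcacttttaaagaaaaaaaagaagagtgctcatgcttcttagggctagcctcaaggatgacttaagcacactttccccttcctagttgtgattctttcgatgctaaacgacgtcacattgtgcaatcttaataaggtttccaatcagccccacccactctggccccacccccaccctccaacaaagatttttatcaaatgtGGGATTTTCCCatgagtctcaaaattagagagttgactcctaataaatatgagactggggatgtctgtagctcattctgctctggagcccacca

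Across the transcriptome, 477 of 11088 genes (4.3%) were called different between the labels, where called means an adjusted p under 0.05 from limma with Benjamini-Hochberg adjustment over all genes tested. In the KO-labelled libraries 259 genes were higher (2.34%) and 218 lower (1.97%), and 275 of the called genes differed by at least 1 log2 unit. The median log2 fold change of all tested genes was 0.0004. Without adjustment 2482 genes had a p under 0.05. For 3821 genes (34.5%) the 2 groups of libraries did not overlap, with the KO-labelled ones all above in 1777 (16%) and all below in 2044 (18.4%). The plot of fold change against level shows larger rises than falls: called genes that were higher had a median log2 fold change of 1.49, and called genes that were lower one of −0.77. The split between higher and lower calls moved with the method, from 54.3% higher in limma to 70.1% with edgeR and 65.8% with DESeq2.

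**Figure D1:**
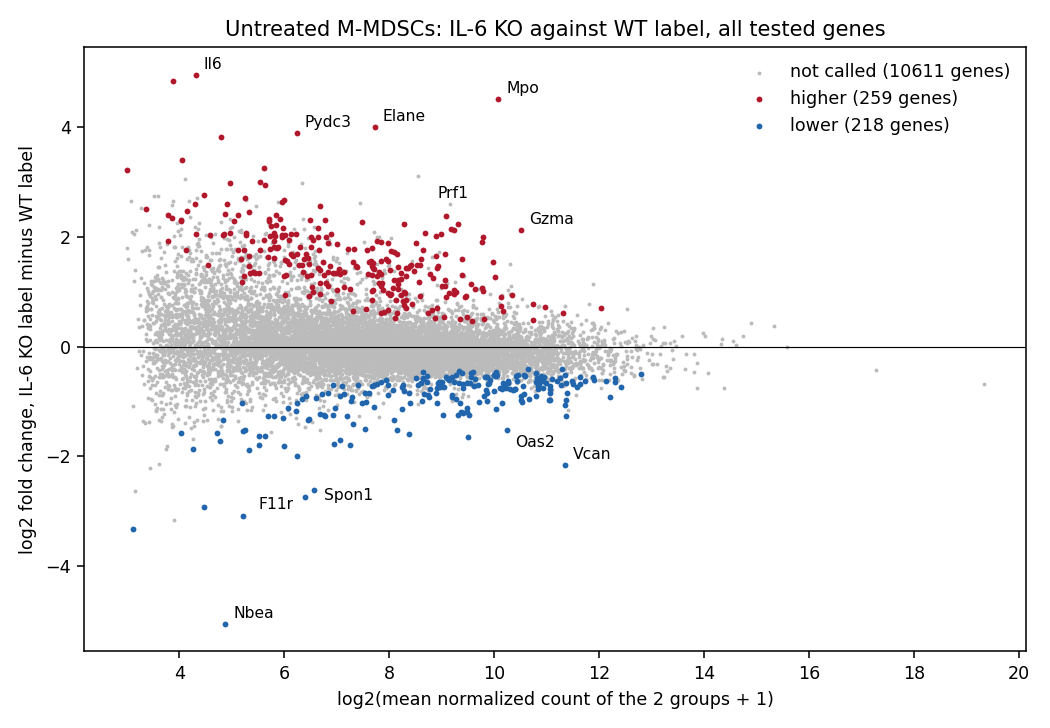
Log2 fold change between KO-labelled and WT-labelled untreated M-MDSCs (vertical axis) against log2 of the mean normalized count + 1 (horizontal axis), 1 point for each of 11088 genes. Red points mark the 259 genes called higher and blue points the 218 called lower in KO-labelled libraries; Il6, Mpo and Elane are at the top and Nbea, Vcan and Oas2 on the lower side.

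Most calls depended on having all 6 libraries. Leaving out the KO-labelled replicates 1, 2 or 3 gave 63, 493 and 94 calls, and leaving out the WT-labelled replicates 1, 2 or 3 gave 83, 95 and 59. Only 46 genes (0.415%) were called in all 6 such fits, 31 of them higher and 15 lower, and edgeR also called all 46. Among the 116 genes that the naming rule and lists select, 75 were called. All 75 kept their direction whichever library was left out, and 16 kept their call in each fit: Il6, Nedd4, Pydc3, Cst7, Prf1, Serpinb6b, Nkg7, F11r, Spon1, Oas1g, Fmn1, Cdkn1a, Fasn, Gimap4, Gimap6 and Il18r1. Of the other 59, 39 kept their call only without the KO-labelled replicate 2 and lost it in the other 5 fits, with adjusted p up to 0.193 in any fit. Where a gene below is given a second adjusted p, it is the highest of the 6.

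Natural killer (NK) cell genes rose. These genes encode the killing machinery and receptors of cytotoxic lymphocytes, and 12 of the 15 tested were higher in KO-labelled libraries and 0 lower, against 2.34% of all genes higher. All 15 had their 3 KO-labelled values above the 3 WT-labelled ones (against 16% of all genes), and the list median was 1.90 against 0.0004 for all genes. Nkg7 (chr7:43437138-43438246), which encodes a cytotoxic granule membrane protein, had 458, 580 and 506 normalized counts in KO-labelled and 110, 102 and 114 in WT-labelled libraries. That is a 4.69-fold difference (log2 2.23 ± 0.19, adjusted p 0.00021, up to 0.00365), the smallest adjusted p among the genes named here. Prf1 (chr10:61297751-61304684), which encodes perforin, had 838, 1170 and 704 against 169, 179 and 160 (log2 2.38 ± 0.39, adjusted p 0.00735, up to 0.0458). For both genes each KO-labelled library was far above each WT-labelled one, and the WT-labelled values lay close together. The receptor gene Klre1 had 268, 401 and 356 against 125, 112 and 106 (log2 1.56 ± 0.26, adjusted p 0.00798, up to 0.0528). The other called genes of the list were Ncr1, Klrb1c, Klrk1, Gzma, Gzmb, Eomes, Tbx21, Itga2 and Il2rb. The 3 not called included Fasl, the gene of Fas ligand, with 165, 191 and 224 against 67.5, 53.3 and 81.1 (log2 1.52 ± 0.51, adjusted p 0.103).

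The number of NK genes called ranged from 2 to 9 when 1 library was left out, lowest at 2 without the WT-labelled replicate 3 and at 4 without the WT-labelled replicate 1. It was 7 without the KO-labelled replicate 3, with a list median of 1.96. edgeR and DESeq2 called all 15, and a fit over all 24 libraries called 0. The summed level of the list was 10100 to 13800 normalized counts in KO-labelled and 2700 to 3200 in WT-labelled libraries, and 0 of its genes were at 0 in all 6 libraries. In RNA from a sorted population, more cells of a type and more RNA per cell cannot be told apart, and the sort to a stated purity above 99% does not name the gate.

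The promoters of Prf1 and Nkg7 are printed because these were the NK genes that kept their call whichever library was left out. Both stretches are on the plus strand of GRCm38.p6 (RefSeq), Prf1 at chr10:61297586-61297885 and Nkg7 at chr7:43436888-43437187, each 250 bases before to 50 after the start. For Prf1 the start used here lies inside the gene span given above, not at its first base. In Prf1 capitals mark a match to the RUNX motif TGTGGT, on the reverse strand at −130. In Nkg7 they mark a match to the T-box motif GGTGTGA at −13, and the Nkg7 stretch also holds a RUNX match in lower case at −83. RUNX and T-box proteins are transcription factors of cytotoxic lymphocytes, and matches on either strand occur in 16.8% and 3.98% of all promoters of this length. The matches do not overlap each other.
Prf1: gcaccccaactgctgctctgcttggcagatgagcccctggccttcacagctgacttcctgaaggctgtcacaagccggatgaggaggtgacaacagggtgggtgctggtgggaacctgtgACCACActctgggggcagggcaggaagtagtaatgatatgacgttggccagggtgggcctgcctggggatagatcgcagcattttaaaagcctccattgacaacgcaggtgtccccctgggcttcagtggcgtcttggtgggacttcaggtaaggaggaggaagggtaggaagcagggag
Nkg7: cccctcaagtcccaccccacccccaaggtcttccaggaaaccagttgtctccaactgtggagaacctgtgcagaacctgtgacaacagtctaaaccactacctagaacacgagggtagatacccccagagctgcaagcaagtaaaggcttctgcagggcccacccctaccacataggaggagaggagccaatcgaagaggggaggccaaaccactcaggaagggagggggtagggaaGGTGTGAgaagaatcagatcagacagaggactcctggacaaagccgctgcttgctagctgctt

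T cell genes were higher as well, from a lower level. Of 15 tested, 9 were called higher (against 2.34% of all genes) and 0 lower, with a median of 2.16. The summed level was 1890 to 3160 in KO-labelled and 535 to 889 in WT-labelled libraries. Cd8a, which encodes a chain of the CD8 co-receptor, had 212, 91.1 and 189 against 37.7, 38.3 and 26.4 (log2 2.16 ± 0.40, adjusted p 0.0136, up to 0.0792). Cd8b1, the other CD8 chain, had 155, 53.5 and 111 against 15.7, 8.33 and 24.5 (log2 2.63 ± 0.63, up to 0.14). The T cell receptor component Cd3e had 135, 57.5 and 108 against 20.4, 21.6 and 13.2 (log2 2.32 ± 0.60, up to 0.17). In all 3 genes the second KO-labelled library was the lowest of its group and still above every WT-labelled one. The kinase gene Lck differed by 1.89 ± 0.34 (adjusted p 0.0118, up to 0.076), the co-stimulatory receptor gene Cd28 by 2.29 ± 0.39 (0.00902, up to 0.0605), and the transcription factor gene Tcf7 by 2.26 ± 0.60 (0.0486, up to 0.184). Thy1, a T and NK cell surface antigen outside the list, had 186, 166 and 169 against 30.6, 20.8 and 36.8 (log2 2.56 ± 0.43, adjusted p 0.00852, up to 0.0502). Counts of T cell calls fell to 0 without the KO-labelled replicate 1 or the WT-labelled replicate 3, to 2 without the KO-labelled replicate 3 or the WT-labelled replicate 2, to 3 without the WT-labelled replicate 1 and to 6 without the KO-labelled replicate 2, and the median stayed between 1.92 and 2.39.

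Gimap genes, GTPases best known for lymphocyte survival, formed a compact group on chromosome 6 with 6 of 8 called higher (against 2.34% of all genes) and 0 lower. Gimap4 had 892, 933 and 967 against 295, 186 and 171 (log2 2.14 ± 0.32, adjusted p 0.0056, up to 0.0396). Gimap6 had 625, 588 and 630 against 214, 182 and 151 (log2 1.76 ± 0.28, adjusted p 0.00618, up to 0.044), and Gimap3 had 791, 676 and 974 against 245, 291 and 216 (adjusted p 0.0235, up to 0.104). In each of the 8 genes the KO-labelled values were all above the WT-labelled ones (against 16% of all genes). When 1 library was left out, 2 to 4 of the 8 were called. The Gimap sum was 3550 to 4100 against 1000 to 1220. As in the NK and T cell sums, every KO-labelled library was above every WT-labelled one, but the highest KO-labelled library differed: the third for Gimap, the second for NK and the first for T cell genes.

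B cell genes had higher values in KO-labelled libraries without passing the test. Of 12 tested, 0 were called by limma (8 at an unadjusted p under 0.05, 2 by edgeR and 6 by DESeq2). In 11 all KO-labelled values were above the WT-labelled ones (against 16% of all genes), and the median was 0.97. Their sum was 1450 to 2220 against 818 to 952. The B cell receptor inhibitor gene Cd22 had 438, 296 and 263 against 195, 205 and 182 (log2 0.74 ± 0.34, adjusted p 0.219), and the adaptor gene Bank1 had 309, 224 and 262 against 220, 171 and 173 (0.49 ± 0.22, 0.201). Igj, the joining chain of secreted antibodies, was the 1 plasma cell gene called of 6 (against 4.3% of all genes), with 1240, 437 and 1510 against 159, 236 and 209 (log2 2.23 ± 0.57, adjusted p 0.0448, up to 0.158). Over the NK, T, B, plasma cell and Gimap lists together, 28 of 56 tested genes were called higher (against 2.34% of all genes), 0 lower, and all 56 had a fold change above 0. They made up 10.8% of all genes called higher. Whether the remaining calls moved with lymphocyte RNA was not tested.

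Dendritic cell genes had 2 of 12 called, both higher (against 2.34% of all genes), with a list median of 0.93. Siglech, a plasmacytoid dendritic cell lectin, had 50.3, 42.9 and 54.4 against 11.8, 0.833 and 0.944 (log2 3.81 ± 0.64, adjusted p 0.00852, up to 0.0528). Clec9a, a receptor of cross-presenting dendritic cells, had 101, 79.3 and 91.8 against 25.9, 48.3 and 37.7 (log2 1.30 ± 0.27, adjusted p 0.0244, up to 0.0976). The summed level was 2470 to 3510 in KO-labelled and 2170 to 2230 in WT-labelled libraries. Of red pulp macrophage genes 0 of 12 were called by limma (2 at an unadjusted p under 0.05, 0 by edgeR and 1 by DESeq2), and their sums overlapped (1900 to 2560 against 2220 to 2740).

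**Figure D2:**
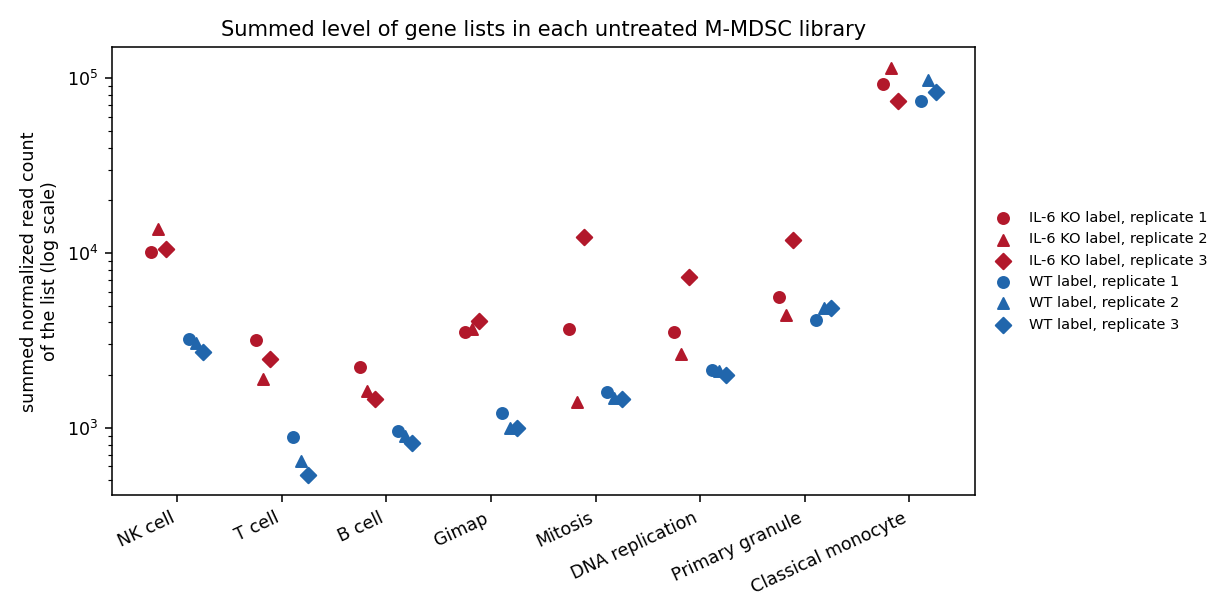
Summed normalized read count of each gene list (vertical axis, log scale) in each untreated M-MDSC library, KO-labelled in red and WT-labelled in blue, with the shape giving the replicate number. NK, T, B cell and Gimap sums are apart between the labels, mitosis and primary granule sums are high mainly in the KO-labelled replicate 3 (12300 and 11800), and the classical monocyte sums overlap.

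Genes of early granulocyte precursors gave the largest folds among the 15 rises, with a wide spread. Mpo (chr11:87793784-87804412), the myeloperoxidase of primary granules, had 946, 129 and 5300 normalized counts in KO-labelled and 21.2, 48.3 and 49.1 in WT-labelled libraries. Its 3 KO-labelled values were all above the WT-labelled ones but ranged from 129 to 5300, highest in the third library (log2 4.51 ± 0.95, 22.8-fold, adjusted p 0.0244). Without that library the difference was 3.21 with an adjusted p of 0.0599, and the highest over the 6 fits was 0.102. Elane (chr10:79886312-79888216), neutrophil elastase, had 169, 38.3 and 1000 against 1.57, 23.3 and 25.5, with the same order among the KO-labelled libraries (log2 4.0 ± 1.02, adjusted p 0.0435, up to 0.168, and 0.134 without the third). These were the 2 of 10 primary granule genes called, both higher (against 2.34% of all genes). The list median was 1.24, and 0.69 without the third KO-labelled library. In fits with 1 library left out 4 of its genes were called without the KO-labelled replicate 2 and 0 in the other 5. Of 13 secondary and tertiary granule genes, made at later neutrophil stages, 0 were higher and 1 was lower (against 2.34% and 1.97% of all genes). The lower one was Hp, which encodes haptoglobin (1250, 1740 and 1210 against 2370, 2400 and 2040, log2 −0.71 ± 0.19, adjusted p 0.0484, up to 0.159). Lactoferrin, Ltf, had 347, 312 and 764 against 281, 243 and 195 (0.88 ± 0.63, adjusted p 0.437). The alarmin genes S100a8 and S100a9 differed by 1.25 ± 0.60 and 1.55 ± 0.64 (adjusted p 0.235 and 0.174). The stem and progenitor list had 1 of 7 called (against 4.3% of all genes), Kit, the stem cell factor receptor (80.4, 43.6 and 142 against 30.6, 15 and 17.9, log2 1.92 ± 0.46, adjusted p 0.0349, and 1.5 with an adjusted p of 0.123 without the third library).

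Cell division genes were highest in the same library. The summed mitosis level was 3660, 1410 and 12300 in the KO-labelled libraries and 1600, 1480 and 1460 in the WT-labelled ones, so the second KO-labelled library was below all WT-labelled ones and the third far above. The DNA replication sums were 3540, 2640 and 7320 against 1990 to 2140, every KO-labelled library above every WT-labelled one, as were all 3 values in 14 of 24 genes (against 16% of all genes). Of 24 mitosis genes 4 were called higher and 0 lower, with a median of 1.54, and of 24 DNA replication genes 6 were called higher and 0 lower, with a median of 1.01. Over all genes 2.34% were called higher. Nuf2, a kinetochore gene, had 64.7, 14.5 and 192 against 8.64, 8.33 and 3.77 (log2 2.95 ± 0.67, adjusted p 0.0309), and without the third KO-labelled library 2.08 (0.0862). Nusap1, a spindle gene, had 44.4, 23.8 and 139 against 7.85, 13.3 and 6.61, and Hmmr, whose product binds hyaluronan and the spindle, had 68.6, 22.5 and 211 against 13.3, 11.7 and 12.3. Their log2 fold changes were 2.45 and 2.39 with the third library and 1.76 and 1.59 without it (adjusted p 0.0677 and 0.0862). Tyms, Mcm5 and Rrm1, which serve nucleotide supply and replication origins, differed by 2.03 ± 0.49, 1.43 ± 0.35 and 1.45 ± 0.37, and by 1.46, 1.02 and 1.02 without it (adjusted p 0.125, 0.125 and 0.141). Leaving out the KO-labelled replicate 2 gave 19 mitosis and 12 replication calls, and leaving out any other library gave 0 of each. Without the KO-labelled replicate 3 the medians were 0.74 and 0.62, and Mki67, the proliferation marker, was not called with it (1360, 396 and 4360 against 469, 455 and 479, adjusted p 0.161) or without it (0.44), and was called without the KO-labelled replicate 2 (0.0118). With no library left out, edgeR gave Mki67 an adjusted p of 0.0577 and DESeq2 0.0188. The erythroid genes that passed the filter, Tfrc and Car2, were both called higher (against 2.34% of all genes), at 241, 103 and 236 against 87.1, 67.4 and 61.3 and 90.8, 40.3 and 65.9 against 19.6, 15 and 13.2 (adjusted p up to 0.119 and 0.147), and the 4 globin genes were listed at 0 in all 6 libraries.

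Several of the largest rises were on none of the lists described so far. Pydc3 (chr1:173673628-173698393), of the interferon-inducible pyrin and HIN family, had 118, 156 and 145 against 8.64, 4.16 and 16, a 14.8-fold difference (log2 3.89 ± 0.62, adjusted p 0.00711, up to 0.0363). Family genes lie in a cluster of similar copies, so how its reads were assigned is uncertain, and 0 of the 9 other family members tested were called by limma, at an unadjusted p under 0.05, by edgeR or by DESeq2. Cst7, which encodes cystatin F, an inhibitor of the proteases that activate granzymes, had 78.4, 127 and 124 against 14.1, 16.7 and 17.9 (log2 2.66 ± 0.45, adjusted p 0.00891, up to 0.0454). Serpinb6b, a serine protease inhibitor, had 157, 154 and 129 against 44, 27.5 and 19.8 (log2 2.30 ± 0.35, adjusted p 0.0056, up to 0.0379). These 3 genes kept their call in every fit. Cd9, a tetraspanin, had 248, 200 and 99.9 against 29.8, 38.3 and 33 (log2 2.31 ± 0.48, adjusted p 0.0235, up to 0.0943). In all, 6 of the 15 largest rises were on the T or NK cell lists. Thy1 and Igj, described above and outside those lists, were also among the 15. These 15 were the largest among the 186 rises that were called, did not overlap between the labels and averaged 100 or more in KO-labelled libraries. The smallest inside was Cd8a at 2.16, and the next outside was at 2.15.

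**Figure D3:**
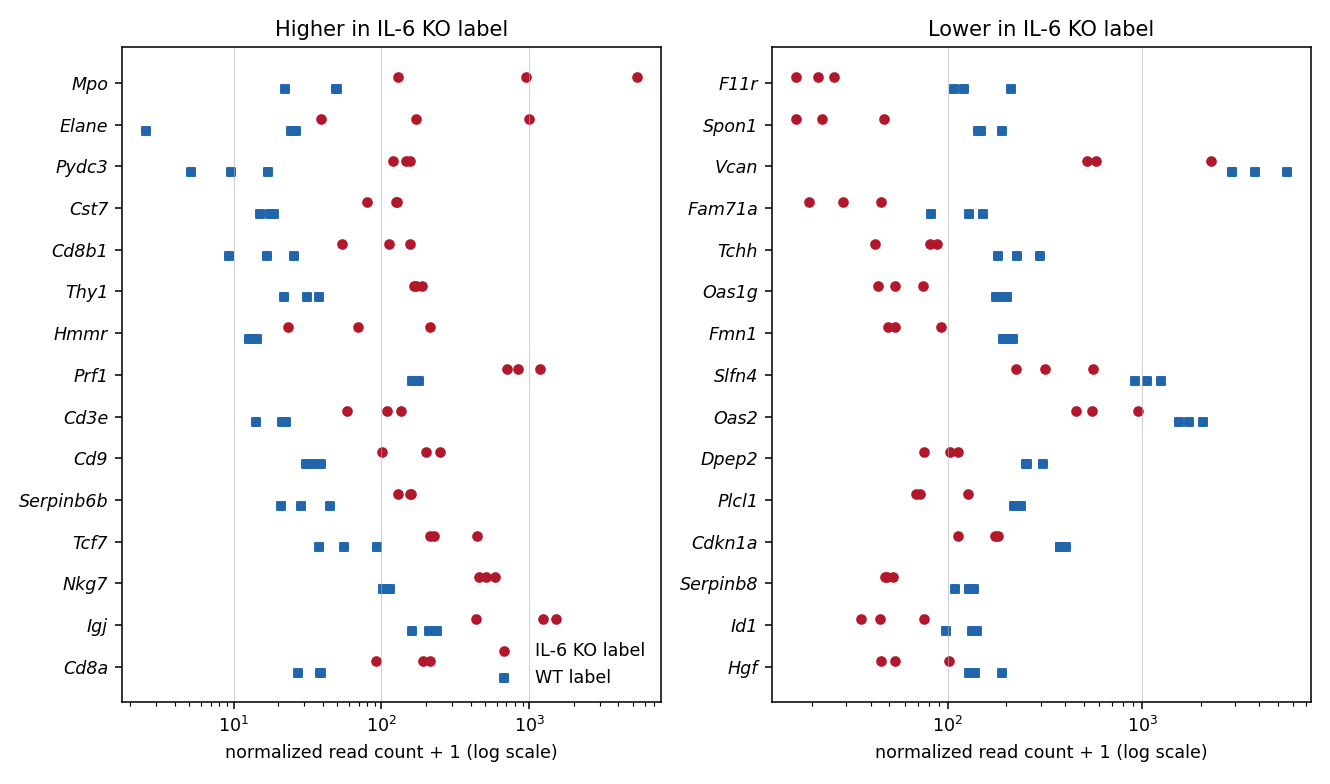
Normalized read count + 1 (horizontal axis, log scale) of the 15 largest rises (left) and 15 largest falls (right), with 3 KO-labelled libraries as red circles and 3 WT-labelled libraries as blue squares for each gene. Groups are apart in each gene by the choice of genes; Nkg7 shows tight groups, and Mpo, Elane and Vcan a wide spread among KO-labelled libraries.

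Among called genes averaging 100 or more in WT-labelled libraries without overlap, F11r, Spon1 and Vcan had the largest falls. F11r (chr1:171437561-171464593), the junctional adhesion molecule JAM-A, had 24.8, 20.5 and 15.6 against 210, 106 and 120, a 6.66-fold lower level (log2 −2.74 ± 0.39, adjusted p 0.00447, up to 0.0257). Spon1 (chr7:113765998-114043375), a secreted matrix protein, had 21.6, 46.2 and 15.6 against 188, 148 and 142 (log2 −2.61 ± 0.38, adjusted p 0.00474, up to 0.0289). Vcan (chr13:89655309-89743027), the proteoglycan versican of classical monocytes, had 522, 2260 and 581 against 5540, 2910 and 3790 (log2 −2.16 ± 0.49, adjusted p 0.0312, up to 0.123). F11r and Spon1 were called whichever library was left out, while the second KO-labelled library brought Vcan close to the WT-labelled range, and edgeR gave it an adjusted p of 0.0599. The actin nucleator gene Fmn1 had 90.8, 52.2 and 48.3 against 200, 191 and 216 (log2 −1.71 ± 0.26, adjusted p 0.0056, up to 0.0392). Cdkn1a, which encodes the cell cycle inhibitor p21, had 173, 181 and 112 against 404, 379 and 378 (log2 −1.34 ± 0.21, adjusted p 0.00616, up to 0.0379). It was the 1 of 14 p53 target genes called, against 4.3% of all genes. Id1, an inhibitor of helix-loop-helix factors, had 43.8, 74.6 and 34.7 against 141, 96.6 and 132 (adjusted p up to 0.0997), and the growth factor gene Hgf had 100, 52.2 and 44.2 against 128, 137 and 188 (up to 0.137). Fam71a, Tchh, Dpep2, Plcl1 and Serpinb8 lay between −1.99 and −1.33, and each lost its call in at least 5 of the 6 fits with 1 library left out. Of 19 matrix and adhesion genes 3 were lower, Vcan, Thbs1 and Ecm1 (69.3, 85.2 and 85.7 against 166, 132 and 138, adjusted p up to 0.155), and 1 higher, Cd9. Over all genes 1.97% were lower and 2.34% higher. The 15 falls came from 188 genes, and both the smallest inside, Hgf, and the next outside were at −1.26.

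Among interferon-inducible genes, Oas1g, Oas2 and Slfn4 fell. Oas1g (chr5:120876142-120887613), an oligoadenylate synthetase that starts RNA decay on sensing double-stranded RNA, had 42.5, 73.3 and 52.3 against 177, 201 and 190 (log2 −1.77 ± 0.27, adjusted p 0.00613, up to 0.0379). Oas2 (chr5:120730333-120749886) had 455, 951 and 551 against 2050, 1550 and 1740 (log2 −1.51 ± 0.36, adjusted p 0.0352, up to 0.138), and Slfn4, of the Schlafen family, had 222, 557 and 317 against 1250, 1060 and 920 (log2 −1.65 ± 0.37, adjusted p 0.0309, up to 0.12). Each had all KO-labelled values below the WT-labelled ones, and edgeR gave Oas2 an adjusted p of 0.0501. Of the 28 type I interferon genes on the list only Oas2 was called, against 1.97% of all genes lower, and 7 had an unadjusted p under 0.05. The KO-labelled values were all below in 10 of the 28 (against 18.4% of all genes), 7 were called lower with the compared groups fitted alone, the median was −0.32, and sums overlapped (13600 to 22000 against 20600 to 21500). The Oas genes are similar copies in a cluster on chromosome 5, so the split of reads between members is uncertain.

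The Oas1g promoter is printed because Oas1g kept its call whichever library was left out, and it was searched for the interferon-stimulated response element, the site of interferon-activated factors. It lies at chr5:120887564-120887863 on the minus strand of GRCm38.p6 (RefSeq), 250 bases before to 50 after the start. Capitals mark 2 overlapping matches to GAAANNGAAA, searched on both strands, at −18 and −12, and 3.44% of all promoters of this length hold a match.
Oas1g: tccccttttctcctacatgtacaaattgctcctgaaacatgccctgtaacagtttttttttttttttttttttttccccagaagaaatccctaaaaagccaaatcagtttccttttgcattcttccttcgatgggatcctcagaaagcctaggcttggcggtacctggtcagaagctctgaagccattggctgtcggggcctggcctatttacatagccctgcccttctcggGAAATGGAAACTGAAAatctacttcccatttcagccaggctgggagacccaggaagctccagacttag

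In the interleukin-6 pathway few genes were called besides Il6. Il6st, the signalling chain gp130, was the 1 gene called lower, with 1130, 1230 and 997 against 1680, 1500 and 1670 (log2 −0.54 ± 0.13, adjusted p 0.0341, up to 0.13). The ligand-binding chain Il6ra had 2610, 2580 and 1880 against 2840, 2880 and 3040 (−0.32 ± 0.15, adjusted p 0.221). Stat3 had 2320, 2440 and 1660 against 2700, 2600 and 2610 (−0.32 ± 0.14, adjusted p 0.198). In all 3 genes the third KO-labelled library was the lowest. The feedback inhibitor Socs3, itself a STAT3 target, had 622, 446 and 246 against 1120, 881 and 799, below in every KO-labelled library. Socs3 did not pass the test in limma (−1.17 ± 0.35, adjusted p 0.0715) or edgeR (0.0923), and DESeq2 gave it an adjusted p of 0.0252. Of 17 pathway genes 1 was higher, Il6 itself, and 1 lower (against 2.34% and 1.97% of all genes), with a median of −0.10. Of 16 STAT3 target genes 0 were higher and 2 lower (against 2.34% and 1.97% of all genes), with a median of −0.24. The lower ones were Hp and the interleukin-4 receptor gene Il4ra (814, 977 and 865 against 1780, 1230 and 1360, log2 −0.70 ± 0.18, adjusted p 0.0425, up to 0.172). The summed level of the target list was 14900 to 21300 in KO-labelled and 22300 to 23700 in WT-labelled libraries. Both called targets lost their call whichever library was left out, except the KO-labelled replicate 2. Their adjusted p was 0.147 and 0.12 without the KO-labelled replicate 3, and 0.0647 and 0.0511 in edgeR.

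Of 17 effector genes of suppression 0 were higher and 1 lower, Il4ra, with a median of 0.06. That is near the 4.3% called over all genes. Arg1, Nos2 and Il10, which encode arginase 1, inducible nitric oxide synthase and interleukin-10, were under the filter in these libraries. Cd274, which encodes the inhibitory ligand PD-L1, had 350, 209 and 149 against 189, 192 and 213 (0.16 ± 0.31, adjusted p 0.806), and leaving out its first KO-labelled library turned the sign. Tgfb1 had 2380, 2470 and 1600 against 2300, 2680 and 2500 (−0.24 ± 0.18, adjusted p 0.478). The oxidase subunit gene Cybb had 12800, 12300 and 7220 against 9420, 10900 and 9690 (0.06 ± 0.23, adjusted p 0.913), and 0 of 7 NADPH oxidase genes were called by limma (1 at an unadjusted p under 0.05, 0 by edgeR and 1 by DESeq2). In these 3 genes the groups overlapped. The inflammatory genes Ptgs2 and Il1b had lower values in all KO-labelled libraries without passing the test: 32, 41.6 and 10.2 against 43.2, 102 and 88.7 (−1.56 ± 0.48, adjusted p 0.0814) and 172, 124 and 37.4 against 260, 178 and 248 (−1.27 ± 0.65, adjusted p 0.267). For Ptgs2 edgeR gave an adjusted p of 0.0914 and DESeq2 0.0274, and for Il1b they gave 0.345 and 0.427. The chemokine gene Cxcl2 was the 1 of 20 NF-kB inflammatory genes called (against 4.3% of all genes), at 11.1, 3.96 and 6.8 against 21.2, 20.8 and 45.3 (log2 −1.86 ± 0.48, adjusted p 0.0472, up to 0.193).

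Of 15 classical monocyte genes, against 1.97% of all genes, 2 were lower, Vcan and the coagulation factor gene F10 (809, 942 and 909 against 1550, 1580 and 1350, log2 −0.75 ± 0.16, adjusted p 0.0244, up to 0.0939). The chemokine receptor gene Ccr2 had 4150, 5380 and 3750 against 5290, 5620 and 5480, the growth factor receptor gene Csf1r 9210, 8360 and 5090 against 8460, 9520 and 9260, and the integrin gene Itgam, which encodes CD11b, 6780, 6800 and 6150 against 6090, 8040 and 6480, and the groups overlapped in each. Ly6c2, the monocyte antigen gene, had 886, 1310 and 1120 against 366, 633 and 644 (1.04 ± 0.43, adjusted p 0.181), above in every KO-labelled library. Of 13 non-classical monocyte genes, against 2.34% of all genes, 2 were higher, Cd9 and Spn, which encodes CD43 (6120, 5280 and 4150 against 3140, 3380 and 2960, log2 0.70 ± 0.17, adjusted p 0.0352, up to 0.144). Cx3cr1 and Nr4a1, which mark that subset, differed by 0.47 ± 0.32 and −0.29 ± 0.32 with overlapping groups.

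Among myeloid transcription factors 2 of 19 were higher and 2 lower, against 2.34% and 1.97% of all genes. Irf8, the regulator of the monocyte and dendritic cell fate, had 2780, 2930 and 3400 against 1720, 2590 and 1750 (log2 0.61 ± 0.15, adjusted p 0.0363, up to 0.161). Gfi1, a repressor that favours granulocytes, had 73.8, 62.7 and 160 against 26.7, 48.3 and 20.8, highest in the third KO-labelled library (log2 1.56 ± 0.41, adjusted p 0.0485, up to 0.184, and 1.16 with 0.158 without it). The lower ones were Id1 and Zeb2. Receptors for growth factors and cytokines had 2 higher and 3 lower of 16, against the same shares. Il18r1, a chain of the interleukin-18 receptor also known from NK and T cells, had 704, 684 and 757 against 261, 276 and 236 (log2 1.47 ± 0.20, adjusted p 0.00424, up to 0.0308). Csf3r, the receptor of granulocyte colony-stimulating factor, had 2000, 2100 and 1440 against 2880, 2600 and 3000 (log2 −0.63 ± 0.15, adjusted p 0.0371, up to 0.149). Kit was the other rise, and Il4ra and Csf2ra the other falls. The signalling adaptor gene Myd88 was the 1 of 15 Toll-like receptor pathway genes called (against 4.3% of all genes), with 770, 1160 and 596 against 1510, 1390 and 1210 (log2 −0.75 ± 0.19, adjusted p 0.0426, up to 0.159, and 0.0599 in edgeR).

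Single genes of survival and metabolism were called as well. Nedd4 (chr9:72662331-72749851), a ubiquitin ligase, had 365, 356 and 464 against 118, 84.9 and 116, a 3.71-fold difference (log2 1.89 ± 0.20, adjusted p 0.000627, up to 0.00676). Fasn (chr11:120805958-120825166), fatty acid synthase, had 753, 636 and 738 against 389, 360 and 380 (log2 0.91 ± 0.13, adjusted p 0.00474, up to 0.0314), the 1 of 20 cholesterol and fatty acid genes called, of which 19 were above 0. Bcl2, which blocks apoptosis and is abundant in lymphocytes, had 756, 620 and 825 against 332, 370 and 316 (log2 1.10 ± 0.22, adjusted p 0.0198, up to 0.0918), the 1 of 14 genes of its family called. Over all genes 4.3% were called. In Nedd4 and Fasn the values within each label lay close together. Nnt (chr13:119335527-119409257), a mitochondrial transhydrogenase that is disrupted in the C57BL/6J substrain, had 156, 152 and 231 against 327, 341 and 304 (log2 −0.87 ± 0.20, adjusted p 0.0337, up to 0.122, and 0.053 in edgeR), and the glutathione reductase gene Gsr had 3920, 4460 and 3820 against 6600, 7690 and 6180 (log2 −0.74 ± 0.16, adjusted p 0.0244, up to 0.0872). They were the 2 of 15 antioxidant genes called, both lower (against 1.97% of all genes), and 8 had an unadjusted p under 0.05. The labels do not name the substrain of the WT-labelled mice, and the 2 labels also differ in strain, so genotype and strain background cannot be told apart. Of 18 glycolysis genes 0 were called by limma, edgeR or DESeq2 (4 at an unadjusted p under 0.05). Of 17 unfolded protein response genes limma and edgeR called 0 and DESeq2 2 (4 unadjusted), and of 10 MHC class II genes limma and edgeR called 0 and DESeq2 1 higher and 1 lower (4 unadjusted).

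The chromosome segment around Il6 was examined because a targeted allele is carried with neighbouring DNA of the strain it was made in. Within 10 Mb of Il6, 144 other genes were tested and 11 called (7.64%, against 4.3% of all genes), 3 higher and 8 lower (5.56%, against 1.97%), with a median of −0.05. The transcription factor gene Fosl2 had 959, 1090 and 832 against 1650, 1550 and 1750 (log2 −0.79 ± 0.13, adjusted p 0.00902, up to 0.0653). Preb, a regulator of protein export, had 864, 999 and 936 against 1480, 1680 and 1640 (log2 −0.78 ± 0.15, adjusted p 0.0154, up to 0.0792). Tnip2, an inhibitor of NF-kB activation, had 300, 359 and 279 against 760, 514 and 653, and Gsap, which encodes the gamma-secretase activating protein, had 1280, 1180 and 862 against 2150, 2020 and 2220 (adjusted p 0.035 and 0.0309, up to 0.142 and 0.119). In these 4 genes every KO-labelled value was below every WT-labelled one. Prkag2, Mrpl33, Sh3tc1 and 1 more gene were also lower, and Tyms, Cad and Jakmip1 higher. Percentages of genes called by chromosome ran from 1.39 on chromosome 12 to 7.02 on chromosome 6, and the share for all of chromosome 5 was 5.84.

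**Figure D4:**
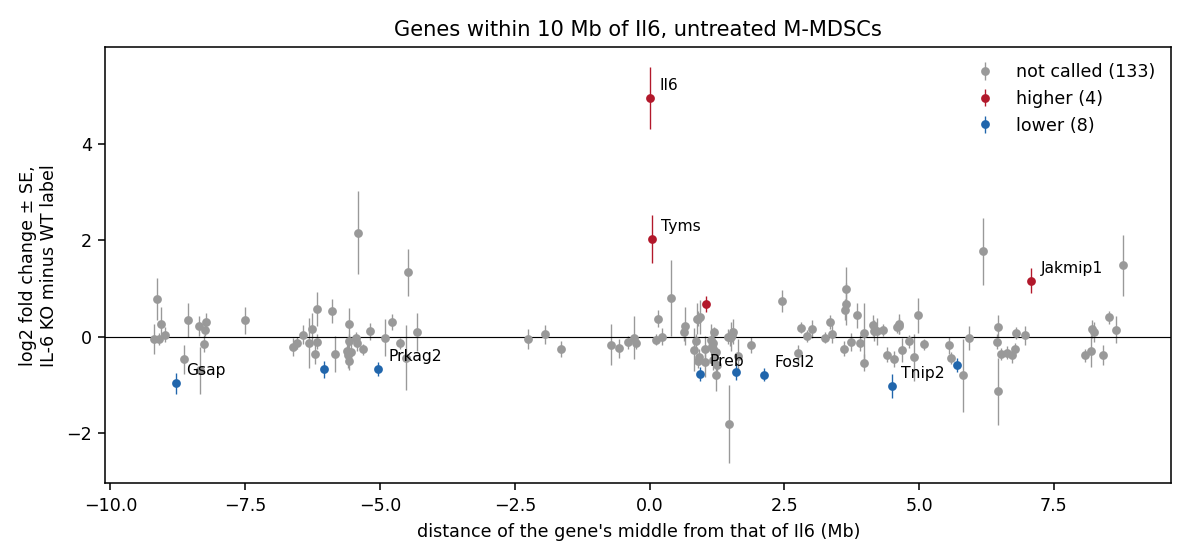
Log2 fold change with its SE (vertical axis) of each tested gene within 10 Mb of Il6 against the distance of its middle from that of Il6 in Mb (horizontal axis), KO-labelled minus WT-labelled. Red points are called higher and blue points lower; Il6 stands at 4.95 and the 8 lower genes are spread over the segment.

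The same contrast in lymphodepleted M-MDSCs and in untreated PMN-MDSCs shares no library with the one above, and the labels do not say whether M-MDSCs and PMN-MDSCs came from the same mice. Both M-MDSC contrasts come from 1 fit that shares its estimate of the spread, so their calls are not independent. In lymphodepleted M-MDSCs 24 genes were called (0.216%), 18 higher (0.162%) and 6 lower (0.0541%), and 1051 had an unadjusted p under 0.05. With those 6 libraries fitted alone 0 were called. Of the 24, 15 were also called in untreated M-MDSCs, and all 15 had the same sign. That is 62.5% of the lymphodepleted calls (against 4.3% of all genes) and 3.14% of the untreated ones (against 0.216%). Among them were Arap2, Bcl2, Dtx1, Ecm1, Eps8, Gda, Gimap6, Gm15446, Il18r1, Il6, Itga2, Jakmip1 and Sytl2. Of the 477 genes called in untreated cells 353 had the same sign there (74.0%), against 52.6% of all tested genes. The median of the 259 genes called higher was 1.49 in untreated cells, in which they were chosen, and 0.40 in lymphodepleted ones. In untreated PMN-MDSCs only Il6 was called (1 higher, 0.00902%, and 0 lower, 0%; 431 unadjusted), 385 of the 477 had the same sign (80.7%), against 64.3% of all tested genes, and the median of the 259 was 0.51.

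NK cell genes had medians of 1.90 in untreated M-MDSCs, 1.56 in lymphodepleted M-MDSCs and 1.87 in untreated PMN-MDSCs. The Gimap medians were 1.78, 1.65 and 1.11, and the T cell medians 2.16, 1.27 and 0.84, in the same order. From these lists only Itga2, Txk and Gimap6 were called in lymphodepleted M-MDSCs, and no gene was called in PMN-MDSCs. Prf1, for example, differed by 1.92 ± 0.93 in PMN-MDSCs, with an adjusted p of 0.903 in limma. By contrast the mitosis medians were 1.54, −0.09 and 0.17, and those of the primary granule list 1.24, −0.11 and −0.06. Mpo differed by 4.51 ± 0.95 untreated, 0.18 ± 0.95 lymphodepleted and 3.17 ± 0.78 in PMN-MDSCs. The PMN-MDSC value did not pass the test (adjusted p 0.903 in limma). Its counts there were low, at 18.1 to 71.3 in KO-labelled and 0 to 7.34 in WT-labelled libraries. Vcan was −2.16 ± 0.49, −2.07 ± 0.49 and −3.64 ± 0.64, and F11r −2.74 ± 0.39, −1.95 ± 0.39 and −1.18 ± 0.84, where only the untreated M-MDSC values passed the test. Il6 had 16.2 to 45.3 normalized counts in KO-labelled and 0 to 3.87 in WT-labelled lymphodepleted M-MDSCs, and 153 to 220 against 0 to 7.2 in PMN-MDSCs. A test of the difference between the lymphodepleted and the untreated contrast in M-MDSCs called 1 gene, Nedd4 (0.00902%; 0 with a larger contrast after lymphodepletion, 0%), at −2.17 ± 0.28 with an adjusted p of 0.0301. At an unadjusted p under 0.05 it had 1359 genes, among them 257 of the 477.

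**Figure D5:**
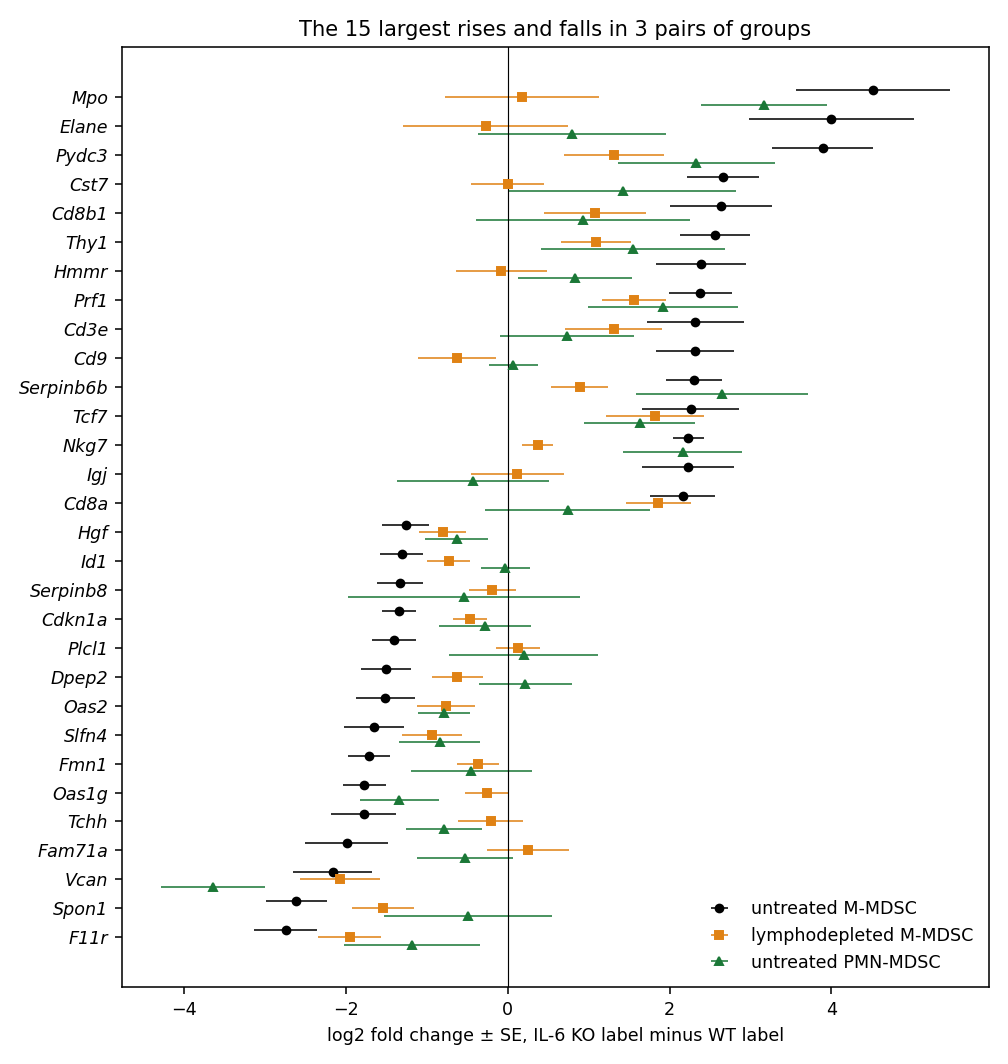
Log2 fold change ± SE, KO-labelled minus WT-labelled (horizontal axis), of the 15 largest rises and 15 largest falls in untreated M-MDSCs (black circles), with the same genes in lymphodepleted M-MDSCs (orange squares) and untreated PMN-MDSCs (green triangles). Vcan lies far below 0 in all 3, while Mpo and Elane are near 0 in lymphodepleted M-MDSCs (0.18 and −0.27).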

How the data were processed

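Total RNA of sorted spleen M-MDSCs and PMN-MDSCs was sequenced in 24 libraries. The tools were STAR 2.5.3a, HTSeq 0.6.1 and DESeq2, with the build mm10, per the submitters' processing notes. Not given in the sources used here are the DESeq2 version, the annotation, the strand setting and any filter. The authors deposited 1 table of normalized read counts, a signal that is whole reads divided by a factor per library. Dividing by each M-MDSC library's smallest step returned 100% whole numbers at a tolerance of 0.001, and these reads gave the depth of 7237462 to 9701309 per library of the main comparison. The PMN-MDSC libraries also returned 100% whole numbers, but count tests were run in M-MDSCs alone.

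The main test was limma 3.58.1 with a mean-variance trend in R 4.3.3 on log2(normalized count + 1), over the 12 M-MDSC libraries with 1 mean per group, so the spread is shared by 4 groups. The PMN-MDSC contrast was fitted on its own 12 libraries. Tests were two-sided, and p-values were adjusted (Benjamini-Hochberg) over 11088 genes. The log2(normalized count + 1) scale understates the change of low genes. The alternatives tried were leaving out the filter, a pseudocount of 0.5 or 5, a filter over 12 libraries, quantile normalization, blocking on the replicate number, other sets of libraries fitted, each library left out and, from recovered reads, edgeR 4.0.16 (quasi-likelihood, TMM) and DESeq2 1.42.0. On simulated counts for the 11088 genes of the main comparison, 64% of genes changed by 1 log2 unit and 94% of those changed by 2 were recovered, and 3.66% of calls were false. The changed genes were drawn only from those above a minimum mean level, and each gene was simulated on its own. Spread common to many genes of 1 library, as in the third KO-labelled one, was not simulated, so the false share may not hold here.

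Genes were named by rule: 33 genes of interest fixed by name, the 15 largest rises and falls that were called without overlap between the labels and averaged 100 or more on the higher side, up to 3 called genes per list (or the 2 highest where none was called), called genes within 10 Mb of Il6 up to 10, and genes called in the difference test. Other called list members, and genes called in both M-MDSC contrasts, are named after their values were seen, and some of these genes are not reported here. The comparison, its genes and the 42 lists (613 genes, 502 of them tested) were chosen with earlier results of these data known. Symbols matched RefSeq GRCm38.p6 for 23316 of 23479 genes, 1624 of them through a synonym, which gave coordinates and promoters. Counting by strand is not stated, so reads of overlapping genes on opposite strands cannot be told apart.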

Additional observations from a re-analysis of the deposited data

Results flagged for a closer look

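Nedd4 was singled out because its difference between the labels was not the same in untreated and lymphodepleted M-MDSCs, by a test of that difference itself. The contrast after lymphodepletion minus the untreated contrast was −2.17 ± 0.28 (SE) on the log2 scale, with an adjusted p of 0.0301 in limma. In untreated cells the KO-labelled libraries had 365, 356 and 464 normalized counts and the WT-labelled ones 118, 84.9 and 116. After lymphodepletion the lowest and highest counts were 257 and 442 under the KO label and 364 and 443 under the WT label, a log2 difference of −0.28 ± 0.20. Of the 4 groups the untreated WT-labelled one was the lowest. The test shares the untreated libraries with the comparison that called Nedd4, and 0 genes were called with quantile normalization, the block on replicate number or all 24 libraries in 1 fit. Leaving out 1 library at a time, 0 genes were called in 10 of 12 fits, among them each of the 6 that left out an untreated library.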

How the results depend on the processing

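The number of calls moved with the method more than the directions did. For untreated M-MDSCs, against 477 calls, no filter gave 249, DESeq2 1051, the compared groups fitted alone 1329, all 24 libraries in 1 fit 38, and leaving out 1 library 59 to 493. The same replicate number did not pair libraries (correlation of deviations −0.036 to −0.005 for same-numbered libraries), and a block on it gave 272 calls, 266 of them shared. Pseudocounts of 0.5 and 5, the filter over 12 libraries, quantile normalization and edgeR gave 452, 605, 466, 446 and 529. Calls that were higher made up 54.3%, against 60.7% with the block, 59.2% with quantile normalization, 65.8% with DESeq2, 70.1% with edgeR and 84.2% with all 24 libraries. For lymphodepleted M-MDSCs, against 24 calls, DESeq2 gave 193, the block 8, the compared groups alone 0, all 24 libraries 1 and leaving out 1 library 0 to 63. For the difference, against 1 call, a pseudocount of 5 gave 2, edgeR 2, DESeq2 66, quantile normalization, the block and all 24 libraries 0, and leaving out 1 library 0 to 7. For PMN-MDSCs, against 1 call, a pseudocount of 0.5, no filter and the block gave 0, all 24 libraries 4, and leaving out 1 library 0 to 2, and edgeR and DESeq2 were not run there. The difference was not fitted on the compared groups alone, since these are the 12 libraries of its own fit. The cause of these shifts was not tested. Of 1856 values of named genes under an alternative, 1409 kept direction and side of the threshold, 403 lost the call, 14 gained it and 30 reversed, 0 of the reversed from called genes. The reversed ones were, with quantile normalization, Itgam 0.07, Mitf −0.0026, H2-Ab1 0.02, Aldoa 0.08 and Xist 0.14; with edgeR Itga2b 0.03, Cd74 0.01, H2-Ab1 0.06 and Xist 0.0027; and with DESeq2 Itga2b 0.01 and H2-Ab1 0.04. When 1 library was left out the sign reversed for Cd274 (−0.16 to 0.45, below 0 without the KO-labelled replicate 1), Cybb (−0.09 to 0.32), Itgam (−0.14 to 0.06), Axl (−0.17 to 0.26), Itga2b (−0.19 to 0.14), Il5ra (−0.06 to 1.49), Mitf (−0.19 to 0.21), Cd74 (−0.39 to 0.29), H2-Ab1 (−0.38 to 0.34), Aldoa (−0.12 to 0.01) and Xist (−0.17 to 0.04). Of 672 list counts under an alternative, 386 stayed within 1.5 times and 286 moved. With 3 libraries per label, 64% of genes changed by 1 log2 unit were recovered on simulated data. Neither smaller changes nor changes in the lowest genes were simulated.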

Other observations

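Of the 46 genes called in every fit that left out 1 library, 30 fall outside the naming rule, and those below were chosen after their values were seen. Ets1, a transcription factor of lymphoid cells, had 1710, 1440 and 1350 normalized counts in KO-labelled and 539, 524 and 471 in WT-labelled untreated M-MDSCs (log2 1.55 ± 0.24, adjusted p 0.00613 in limma). Stat4, which carries interleukin-12 signals, had 428, 423 and 542 against 174, 180 and 159 (log2 1.43 ± 0.18, adjusted p 0.00183). Satb1, a chromatin organiser, had 718, 664 and 713 against 386, 328 and 275 (log2 1.09 ± 0.15, adjusted p 0.004), and Ccnd2, which encodes cyclin D2, had 841, 1080 and 1030 against 269, 195 and 216 (log2 2.12 ± 0.23, adjusted p 0.000627). In each of the 4 the lowest KO-labelled library was well above the highest WT-labelled one. Unlike the mitosis genes, Ccnd2 was not highest in the third KO-labelled library.

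Of the 15 that were lower, Mefv, which encodes the inflammasome sensor pyrin, had 595, 785 and 593 against 1590, 1290 and 1450 (log2 −1.14 ± 0.16, adjusted p 0.00429). The transcription factor gene Nfil3 had 466, 462 and 378 against 1080, 892 and 997 (log2 −1.19 ± 0.20, adjusted p 0.00795), and Ifi30, a lysosomal thiol reductase of antigen processing, had 1400, 1710 and 1290 against 2470, 2490 and 2390 (log2 −0.75 ± 0.12, adjusted p 0.00735). Nbea, which encodes neurobeachin, was near 0 in KO-labelled libraries, at 1.96, 0.66 and 0, and present in each WT-labelled one, at 46.3, 55 and 66.1 (log2 −5.05 ± 0.74, adjusted p 0.00514). Of the 46 genes, 42 had the same sign in lymphodepleted M-MDSCs (against 52.6% of all tested genes) and 39 in untreated PMN-MDSCs (against 64.3%).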
